A study of Mus musculus with 36 samples.

Results

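Ccdc184 encodes a small protein of the coiled-coil domain containing family, and its level in mouse cortical neuron cultures is described here across treatment with homocysteic acid (HCA) and sodium selenite. Its values are 1 row of the 27288 in the deposited table, of which 25588 had enough counts to be tested. The row was selected on its higher level in HCA-treated libraries than in their partners without HCA, as found in earlier work on the same data. The HCA comparisons of the row are therefore given as descriptions, with no test. In the file the row carries the identifier ENSMUSG00000029882, that of 2210010C04Rik, a trypsin gene. The name Ccdc184 is inferred, because the values under each identifier appear to belong to the transcript that comes 1 place earlier in identifier order.

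The 36 libraries came from primary cortical neurons of E15 pups of CD1 mice, an outbred strain, plated for 24 h and treated for 6 h. They form 6 groups of 6: untreated control, selenite 0.1, selenite 1, HCA, HCA with selenite 0.1 and HCA with selenite 1. HCA was used at 5 mM. The sample labels state the selenite doses in mM and the series text in micromolar, so no unit is attached to them here. Each of 6 culture batches supplied 1 library to every group. The labels do not say how many pups were pooled in a batch.

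A coiled coil is a bundle of alpha helices wound around each other, a common way for proteins to bind partners. Little is established about what Ccdc184 does. HCA is an analogue of glutamate that blocks the import of cystine, which cells need to make glutathione. Blocked cystine import is known to deplete glutathione and to cause oxidative death of young cortical neurons, and the series text nevertheless calls HCA a ferroptosis inhibitor. Selenite supplies selenium for selenoproteins, among them the glutathione peroxidases.

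Ccdc184 lies at chr15:98167158-98170134 on the plus strand of GRCm38, as a single exon of 2977 nt in GENCODE vM21. Its coding part, at chr15:98168316-98168888 without the stop codon, holds 191 codons. Its only transcript stands immediately before that of 2210010C04Rik among 141862 transcripts sorted by identifier. The trypsin gene lies on another chromosome, at chr6:41030268-41035509 on the minus strand, and has 5 exons. The first 60 coding bases of both follow, with the start codon in capitals, because the deposited name and the inferred name of the row are 2 unrelated sequences.

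Ccdc184: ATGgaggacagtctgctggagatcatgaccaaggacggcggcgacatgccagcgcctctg

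2210010C04Rik: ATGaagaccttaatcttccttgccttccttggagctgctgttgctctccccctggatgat

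No run of 31 bases was shared by the 2 transcripts, so reads of such a length from one would not match the other. Within the annotation, 99.5% of the 2938 runs of 31 bases in Ccdc184 occur in no other gene. Of the other runs, 15 are shared with 216 genes.

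The estimated counts bear on the shift behind the inferred name. A transcript counted alone tends to have whole-number estimates, while a gene with several transcripts tends to have fractions. The Ccdc184 row was whole, within 1e-06, in 36 of 36 libraries. The deposited gene, 2210010C04Rik, has 1 transcript too, so whole values could be met under either name and do not separate them. The shift was examined over 6901 rows whose identifier has 1 transcript and whose mean count was at least 10. Of the 1100 rows for which the preceding transcript belongs to a gene with 1 transcript, 21.8% were whole in all libraries, against 2.55% of the other 5801. At 11 other shifts the corresponding shares were 6.94% to 7.77% and 4.61% to 4.98%. This is a property of many rows, and it does not by itself identify a single one.

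Genes of the pancreas, mostly for digestive enzymes, were looked up by deposited symbol, since the deposited name is that of a trypsin gene. Rows under 18 of 23 such symbols were present, led by Try5 with a median of 1725 counts, Cuzd1 with 1110 and Cela2a with 963. By the shift, those 3 rows hold Asna1 and Csnk2b, Gak, and Aldoc with Slc25a25 and Slc39a14. No row with the identifier of Ccdc184 itself was analysed here.

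Depth for messenger RNA varied widely. Total counts were 34.3 to 56.9 M per library, but rows of ribosomal RNA took 1.70% to 88.6% of them and 4.95 to 52.6 M counts remained. That share moved with the groups. Its medians were 81.2%, 67.1% and 37.8% for control, selenite 0.1 and selenite 1 and 46.9%, 62.8% and 37.7% for the matching HCA groups. The part of this share in the results was not tested, though the counts left outside ribosomal RNA rows were fitted as a covariate. Factors of the trimmed mean of M values (TMM), which put the libraries on a common scale, ran from 0.0309 to 4.19. Control replicates 5 and 6 and selenite 0.1 replicate 5 had the lowest factors. They held 12, 25 and 9 counts of Ccdc184, so counting error alone was 28.9%, 20.0% and 33.3% of those values. HCA with selenite 1 replicate 6 had the most, 2702 counts.

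Ccdc184 was present in every library and stood higher wherever HCA had been added, with means of 12.1 to 13.7 against 4.82 to 5.39. The unit here and below is counts per 1 M counts after TMM scaling (CPM). In control it ran from 3.42 to 6.17 CPM with a median of 4.68, a mean of 4.82 ± 0.942 (SD, n = 6). In selenite 0.1 the lowest, median and highest levels were 3.46, 5.63 and 6.73 CPM, with a mean of 5.39 ± 1.38. In selenite 1 they were 4.45, 5.08 and 6.31 CPM, with a mean of 5.28 ± 0.883. These 3 groups overlapped almost completely.

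With HCA alone Ccdc184 ran from 9.05 to 19.4 CPM with a median of 13.8 and a mean of 13.7 ± 3.97 (SD, n = 6). In HCA with selenite 0.1 the lowest, median and highest levels were 9.02, 11.8 and 16.6 CPM, with a mean of 12.3 ± 2.78. In HCA with selenite 1 they were 7.81, 10.9 and 20.2 CPM, with a mean of 12.1 ± 4.57. The 3 HCA groups overlapped one another. None of their 18 libraries fell as low as the highest of the 18 libraries without HCA: the first ranged from 7.81 to 20.2 CPM and the second from 3.42 to 6.73.

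**Figure D1:**
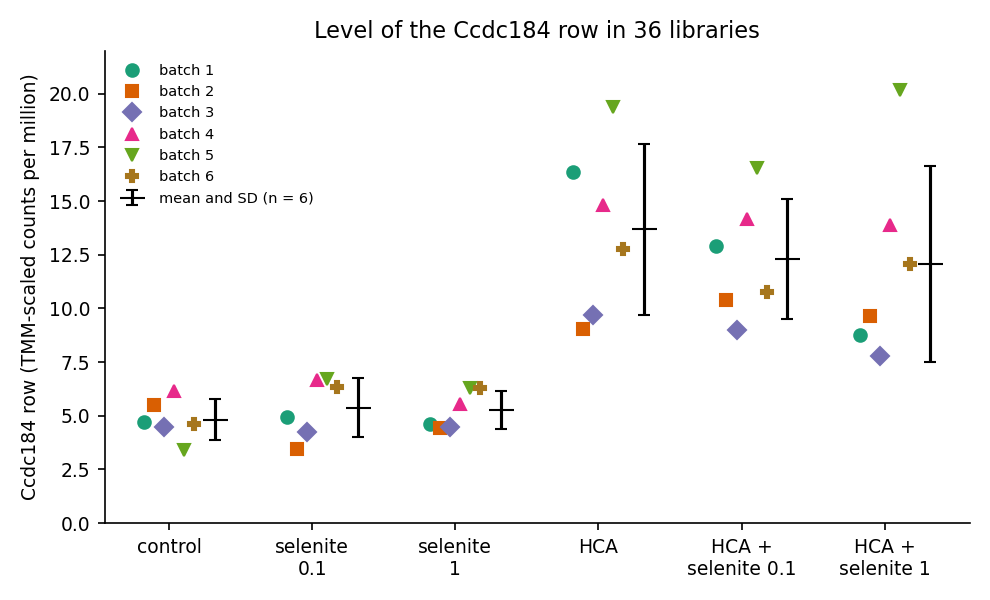
Level of the Ccdc184 row in TMM-scaled CPM (vertical axis) in the 6 groups (horizontal axis); each point is a library, its shape and colour give the culture batch, and bars show mean and SD of 6 libraries. The 18 libraries with HCA sit between 7.81 and 20.2, above all 18 without it, and batch 5 is the highest point in each HCA group.

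Ordered by mean, the groups ran control, selenite 1, selenite 0.1, HCA with selenite 1, HCA with selenite 0.1, HCA. Only the step from selenite 0.1 to HCA with selenite 1, of 6.67 CPM, exceeded the larger SD of its neighbours, by 1.46 times, and only there did neighbours not overlap. The other steps were 0.462, 0.102, 0.245 and 1.38 CPM and lay within the spread between libraries.

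Per length, Ccdc184 was a moderately expressed transcript. In control it reached 1.62 ± 0.316 CPM per kb (SD, n = 6), above 75.3% of 4646 rows that hold 1 coding transcript. With HCA it reached 4.59 ± 1.33 CPM per kb, above 88.4% of those rows. In HCA with selenite 0.1 and HCA with selenite 1 the standing was similar, above 87.4% and 87.0%.

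In the edgeR fit, the log2 fold change of Ccdc184 was 1.49 ± 0.22 (SE) for HCA against control, a fold of 2.80 with a 95% interval of 2.05 to 3.85. It was 1.22 ± 0.22 for HCA with selenite 0.1 against selenite 0.1, a fold of 2.32, and 1.19 ± 0.22 for HCA with selenite 1 against selenite 1, a fold of 2.29. In each comparison the HCA library was higher in 6 of 6 batches on this scale. Over all tested rows, edgeR called 0.199%, 0.145% and 0.125% higher in these 3 comparisons at an adjusted p under 0.05, and 0.0274%, 0.0156% and 0.0274% lower. That is 51, 37 and 32 rows higher and 7, 4 and 7 lower, where DESeq2 called 102, 89 and 68 higher and 73, 65 and 52 lower. Among 4451 named genes with a mean of at least 1 CPM, Ccdc184 stood 37th, 34th and 30th by fold, and among all 25588 tested rows 832nd, 726th and 433rd. All these values belong to the contrasts that chose the row.

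The difference between libraries with and without HCA depended in size on how the counts were scaled. In CPM of the counts outside ribosomal RNA rows, Ccdc184 ranged from 1.45 to 25.9 without HCA and from 17.2 to 56.7 with it, so that 3 HCA libraries reached down into the other range. In CPM of all counts the ranges were 0.208 to 20.8 and 3.49 to 50.5, with 9 HCA libraries in the overlap. Averaged over batches, with 0.5 added to each count, the log2 difference for HCA against control was 1.46 by TMM, 2.50 outside ribosomal RNA and 3.66 of all counts. The median of 4451 named genes moved by the same amount, from 0.16 to 1.20 and 2.37. Outside ribosomal RNA the HCA library was higher in 6, 5 and 6 of 6 batches in the control, selenite 0.1 and selenite 1 pairs, and in CPM of all counts in 5, 4 and 5. A rescaling shifts every row of a library alike, so Ccdc184 minus the median gene is fixed by construction, at 1.29, 1.06 and 1.09 in the 3 pairs.

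**Figure D2:**
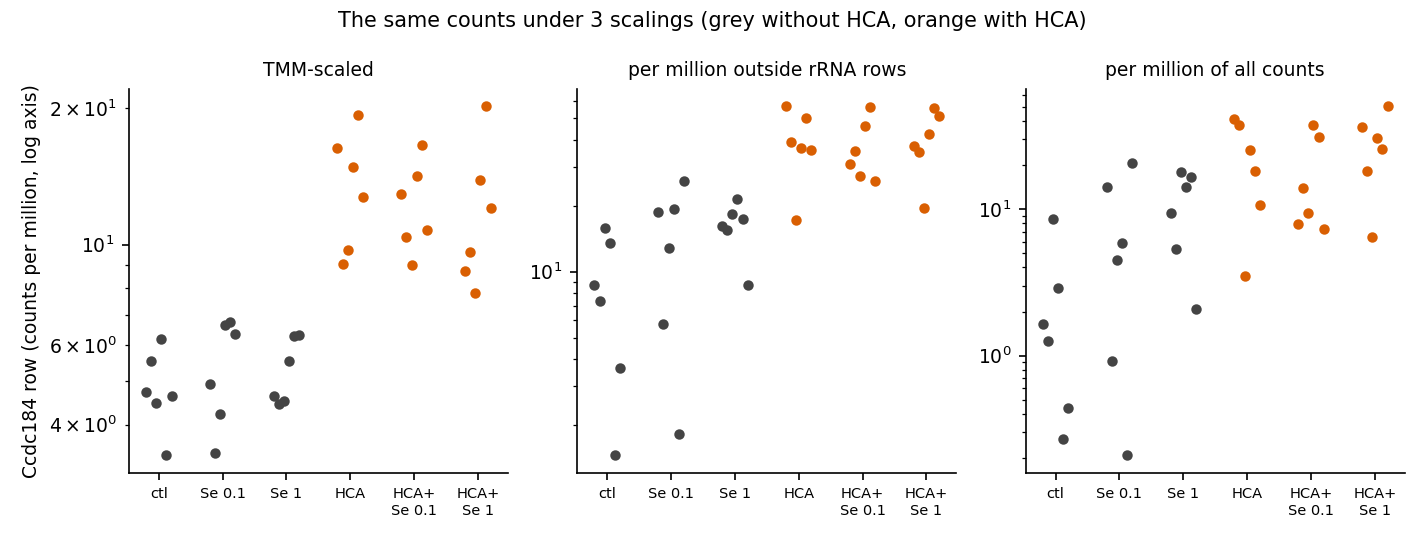
Ccdc184 row in CPM on log axes under 3 scalings (panels) for the 6 groups; each point is a library, grey without HCA and orange with HCA. The arms are apart in the TMM panel, while 3 and 9 HCA libraries lie at or below the highest library without HCA in the other panels.

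The level differed between culture batches too. Averaged over the 3 pairs, the HCA library stood 2.58, 2.20, 2.00, 2.34, 3.55 and 2.08 times above its partner in batches 1 to 6. Batch 5 had the highest Ccdc184 level in each of the 3 HCA groups, with 19.4, 16.6 and 20.2 CPM and a mean of 18.7 ± 1.90 (SD over 3 groups). Batch 3 had the lowest mean over the HCA groups, 8.84 ± 0.961 CPM. Without HCA batch 5 took no constant place: it was the lowest of the controls, at 3.42 CPM from 12 counts, and the highest of selenite 0.1, at 6.73 CPM from 9 counts. Of the sum of squares of log2 CPM over the 36 libraries, 76.7% lay between libraries with and without HCA, 11.5% between batches, 3.62% in HCA by batch and 0.0557% between selenite doses. The biological coefficient of variation of the row in the edgeR fit was 26.3%, against a common value of 56.5% over all rows.

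The selenite contrasts did not enter the choice of the row and were tested, although they share the control and HCA libraries with the contrasts that did. In cultures without HCA no difference was detected on the TMM scale. The log2 fold change of Ccdc184 was 0.12 ± 0.23 (SE) for selenite 0.1 against control, with a 95% interval of -0.34 to 0.58, and selenite was higher in 4 of 6 batches. It was 0.11 ± 0.22 for selenite 1 against control, with an interval of -0.34 to 0.56, and selenite was higher in 3 of 6 batches. The median of all tested rows in the second comparison was also 0.12. On the other scales the estimates were larger, and so was the median gene. In CPM outside ribosomal RNA rows the log2 differences were 0.68 and 1.26, with medians of 0.59 and 1.28 over the 4451 genes, and in CPM of all counts 1.32 and 2.67, with medians of 1.23 and 2.69. On both of these scales Ccdc184 was higher with selenite 1 in 6 of 6 batches.

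In cultures with HCA the TMM-scaled estimates were below 0 and no difference was detected either. Ccdc184 differed by -0.15 ± 0.21 between HCA with selenite 0.1 and HCA alone, with a 95% interval of -0.59 to 0.28, and was higher with selenite in 1 of 6 batches. It differed by -0.18 ± 0.21 between HCA with selenite 1 and HCA alone, with an interval of -0.62 to 0.25, and was higher with selenite in 2 of 6 batches. As folds, the intervals reach down to 0.666 and 0.653 and up to 1.21 and 1.19. The second difference turned to 0.05 outside ribosomal RNA rows and 0.44 in CPM of all counts, where the median gene moved to 0.28 and 0.67.

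Whether the HCA difference itself changed with selenite was tested as an interaction. The log2 HCA difference at selenite 0.1 minus that without selenite was -0.27 ± 0.31, with a 95% interval of -0.90 to 0.36. At selenite 1 it was -0.30 ± 0.31, with an interval of -0.92 to 0.33. In none of these 6 comparisons did the Ccdc184 row pass edgeR's quasi-likelihood test, with unadjusted p of 0.604, 0.615, 0.478, 0.395, 0.389 and 0.343 in the order given and adjusted p of 0.9999 or 1.0. Two-sided exact permutation within batches gave p = 0.594, 0.594, 0.156, 0.219, 0.375 and 0.188, and adjusted over the 6 the lowest was 0.438. With 6 batches the smallest p that test can give is 0.0312. No row at all was called by edgeR in these comparisons, where 1098, 1363, 258, 207, 629 and 594 rows had an unadjusted p under 0.05. DESeq2 called 11, 19, 2, 3, 4 and 8 rows.

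**Figure D3:**
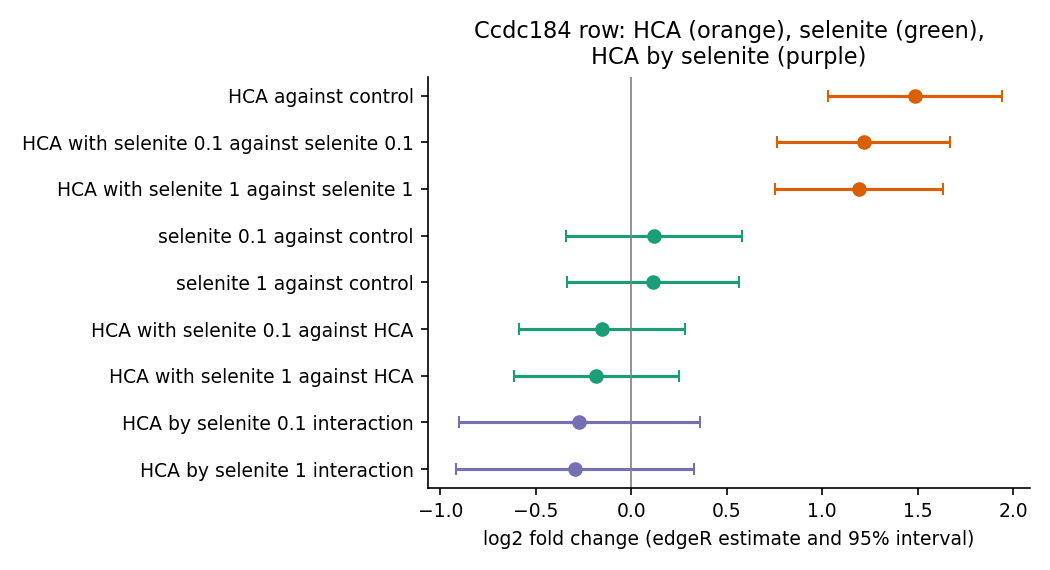
Log2 fold change of the Ccdc184 row (horizontal axis) in 9 contrasts (vertical axis), as edgeR estimates with 95% intervals; orange marks HCA, green selenite and purple the interactions. The 3 HCA estimates, 1.49, 1.22 and 1.19, belong to the contrasts that chose the row and are shown as a description; the intervals of the 6 tested contrasts lie between -0.92 and 0.58 and include 0.

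The genes whose levels most resembled that of Ccdc184 were ranked by Pearson r of log2 CPM over the 36 libraries, among 4450 named genes with a mean of at least 1 CPM. The median r was 0.107 and the 95th percentile 0.507. All points share libraries, scaling and the HCA difference by which the row was chosen, and the libraries form 2 clusters, so r is also given within the 18 libraries of each arm. No p is attached to it.

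Nfil3, a transcriptional repressor of the basic leucine zipper class, came first with r = 0.931 (Spearman's rho 0.897). It ran from 12.6 to 19.8 CPM without HCA and from 22.2 to 39.9 with it. Its r with Ccdc184 was 0.523 among the libraries without HCA and 0.803 among those with it. The row that holds Nfil3 is deposited as C330011M18Rik.

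Nr4a1, an orphan nuclear receptor and immediate early gene deposited as Krt88, came second with r = 0.896. It ran from 0.291 to 1.39 CPM without HCA and from 2.46 to 15.7 with it. Among the HCA libraries its r with Ccdc184 was 0.945, and among those without HCA, where its median was 0.846 CPM, -0.239. Those 18 HCA libraries come from only 6 batches: r was 0.975 over the 6 batch means and 0.823 with batch means removed. With the 6 group means removed over all 36 libraries, r was 0.514 and Nr4a1 stood 261st. The difference in r between the arms was not tested.

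Aars, the alanyl-tRNA synthetase (deposited as Cdh15), followed with r = 0.861 and ran from 44.1 to 117 CPM without HCA and from 135 to 172 with it. Slc3a2, the heavy chain shared by several amino acid transporters (deposited as Nxf1), had r = 0.861 and ran from 23.2 to 39.5 and from 46.6 to 67.1 CPM. Cars, the cysteinyl-tRNA synthetase (deposited as Cd164l2), had r = 0.853 and ran from 7.41 to 16.2 and from 24.7 to 35.1 CPM. None of the 5 genes overlapped between arms, but ranking by r with a row chosen for its HCA difference favours such genes. The share of all named genes without overlap is not given here, so this is a description only. Within the HCA arm r was 0.581 for Aars, 0.240 for Slc3a2 and -0.320 for Cars. Among the libraries without HCA it was 0.376, 0.450 and 0.466.

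**Figure D4:**
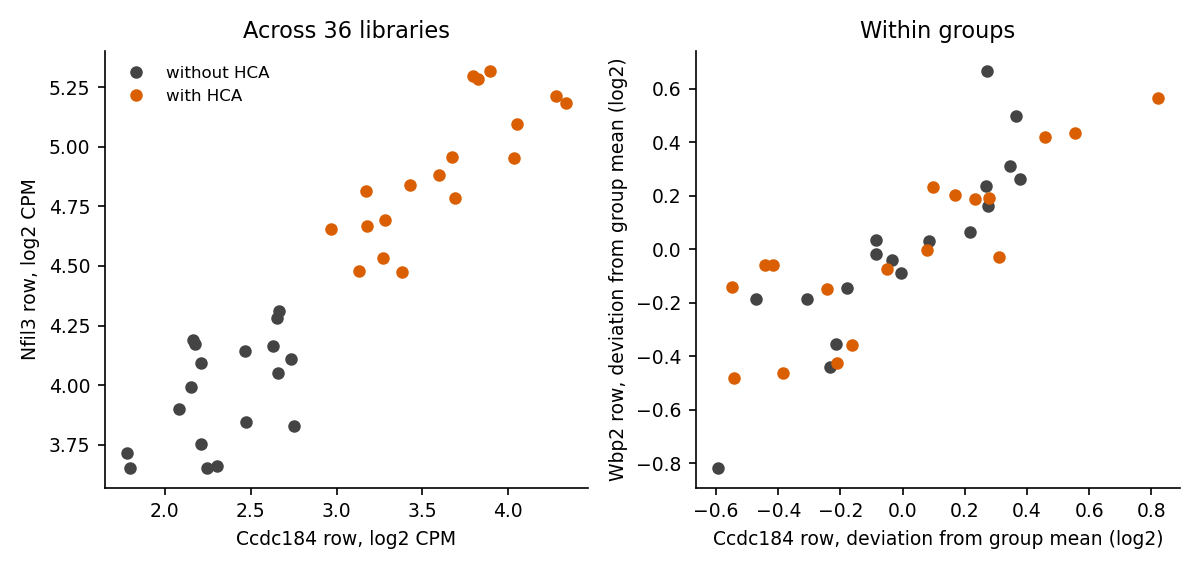
Left: log2 CPM of the Nfil3 row against that of the Ccdc184 row in 36 libraries, grey without HCA and orange with HCA. Right: deviations from the 6 group means, in log2 CPM, of the Wbp2 and Ccdc184 rows. The left panel (r = 0.931) holds 2 separate clouds, and the right panel (r = 0.844) compares libraries within groups.

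With the group means taken out, other genes led. Wbp2, a partner of WW domain proteins, had the highest r of deviations, 0.844, deposited as Krtap6-5. Cand2, a cullin-associated factor, had 0.772, the postsynaptic scaffold gene Dlgap3 0.761, the splicing factor gene Puf60 0.760 and the nuclear pore gene Nup93 0.757. The median over the 4450 genes was -0.03 and the 95th percentile 0.529. None of these 5 was among the 5 most alike over all libraries, and Nfil3 stood 17th with r = 0.709. Depth and culture batch are shared by the libraries in this measure, and their part in it was not tested.

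Genes of the integrated stress response, the programme in which the factor Atf4 switches on amino acid synthesis, amino acid transport and tRNA charging, were set beside Ccdc184. Of 36 listed, 12 were tested, and their median r with it was 0.756, against 0.107 for all named genes. Of the 12, 8 were among the 100 of 4450 genes most like Ccdc184. In this list edgeR called 6 of 12 higher for HCA against control, 7 in the selenite 0.1 pair and 6 in the selenite 1 pair, and none lower, against 0.199%, 0.145% and 0.125% of all rows called higher. The list's median log2 fold changes were 0.96, 1.02 and 0.76, those of all rows 0.08, 0.03 and -0.02. The list was drawn up with HCA results of these data known, so its direction is not independent evidence. Nor is its r over the 36 libraries, which holds the HCA difference by which the row was chosen. With the 6 group means removed, r of its members ran from -0.433 for Eif4ebp1 to 0.535 for Aldh18a1.

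Among its members, Aldh18a1, an enzyme of proline synthesis, had r = 0.844 with Ccdc184 and a log2 fold change of 0.85 ± 0.20 (SE) for HCA against control, which did not pass, and of 1.03 ± 0.20 in the selenite 0.1 pair, which did. Aars, Slc3a2 and Cars passed in all 3 pairs, at 0.98 ± 0.15, 0.67 ± 0.12 and 1.44 ± 0.14 for HCA against control. Atf5 had r = -0.03 with Ccdc184. Within this list, the estimates closest to that of Ccdc184 for HCA against control, 1.49 ± 0.22, were those of Cars and of Eif4ebp1. Eif4ebp1, a repressor of translation, was at 1.44 ± 0.23.

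Immediate early and activity genes, which neurons switch on within minutes to hours of calcium entry, were the second such list. Of 21 listed, 13 were tested, of which 4, 2 and 3 were called higher by edgeR in the 3 HCA pairs and none lower. Of all rows, 0.199%, 0.145% and 0.125% were called higher. This list too was drawn up with HCA results of these data known. Neither its direction nor its r over the 36 libraries is therefore independent evidence. The r of the 10 with enough counts ran from 0.086 to 0.896, with a median of 0.375. Fosl2, a partner of Jun (deposited as Rbks), had r = 0.750 and a log2 fold change of 1.47 ± 0.33 (SE) for HCA against control, which passed. In the selenite 0.1 and selenite 1 pairs Fosl2 was at 1.34 ± 0.32 and 1.35 ± 0.32, which did not pass. With the group means removed its r was 0.139. The clock gene Per1 (deposited as Vamp2) had r = 0.587.

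Other genes named for a coiled-coil domain were set beside Ccdc184 as well. Of 138 with a Ccdc symbol, 44 were tested, and neither edgeR nor DESeq2 called any of them in the 3 HCA pairs, while 3, 0 and 1 had an unadjusted p under 0.05 in edgeR. Of all rows, edgeR called 0.227%, 0.16% and 0.152% and DESeq2 0.684%, 0.602% and 0.469% in either direction, and 7.87%, 5.06% and 3.33% had an unadjusted p under 0.05 in edgeR, so counts of 0 in a list of this size are near that background. Their median log2 fold changes were -0.07, 0.07 and 0.00. The 4 most like Ccdc184 were Ccdc124 with r = 0.445, Ccdc9 with 0.364, Ccdc126 with 0.214 and Ccdc25 with 0.213, all under the 95th percentile of named genes. These genes share a structural motif and a naming scheme and are not one family by descent.

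Of 24 selenoprotein genes, 11 were tested. In the 3 HCA pairs edgeR called none of them, and 3, 2 and 0 had an unadjusted p under 0.05. DESeq2 called 0, 1 and 0. The shares of all rows are those just given. A count of 0 of 11 is near them, while the counts other than 0 lay above them, in a short list. Their median r with Ccdc184 was 0.346. The 4 most like it were Selenoo, a mitochondrial selenoprotein, with r = 0.825, Sephs2, which makes the selenium donor for selenocysteine, with 0.522, Selenoh with 0.377 and Selenos with 0.346.

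On the chromosome, no annotated gene overlaps Ccdc184. Within 500 kb of its start lie 31 other protein coding genes, of which 9 had a row of their own. None of the 9 was called by edgeR or DESeq2 in the 3 HCA pairs, with 0, 0 and 1 at an unadjusted p under 0.05. With 0.227%, 0.16% and 0.152% of all rows called by edgeR, 0 of 9 is near the background. Their median log2 fold changes were -0.13, 0.32 and -0.01. Senp1, a SUMO protease starting at -73.4 kb from Ccdc184, was the nearest with a row, with log2 fold changes of -0.20 ± 0.29 (SE), -0.56 ± 0.28 and -0.63 ± 0.28. Zfp641, Slc48a1, a haem transporter, and Kansl2, a subunit of a histone acetyltransferase complex, gave 0.24 ± 0.46, -0.06 ± 0.20 and 0.29 ± 0.23 for HCA against control. Hdac7 and the cartilage collagen gene Col2a1 gave -0.23 ± 1.03 and 0.99 ± 0.65 at means of 1.39 and 1.98 CPM. Zfp641, H1fnt, Olfr285 and Olfr281 averaged under 1 CPM. Asb8, whose start lies at -1.53 kb on the other strand, had no row of its own, so its level was not analysed here.

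**Figure D5:**
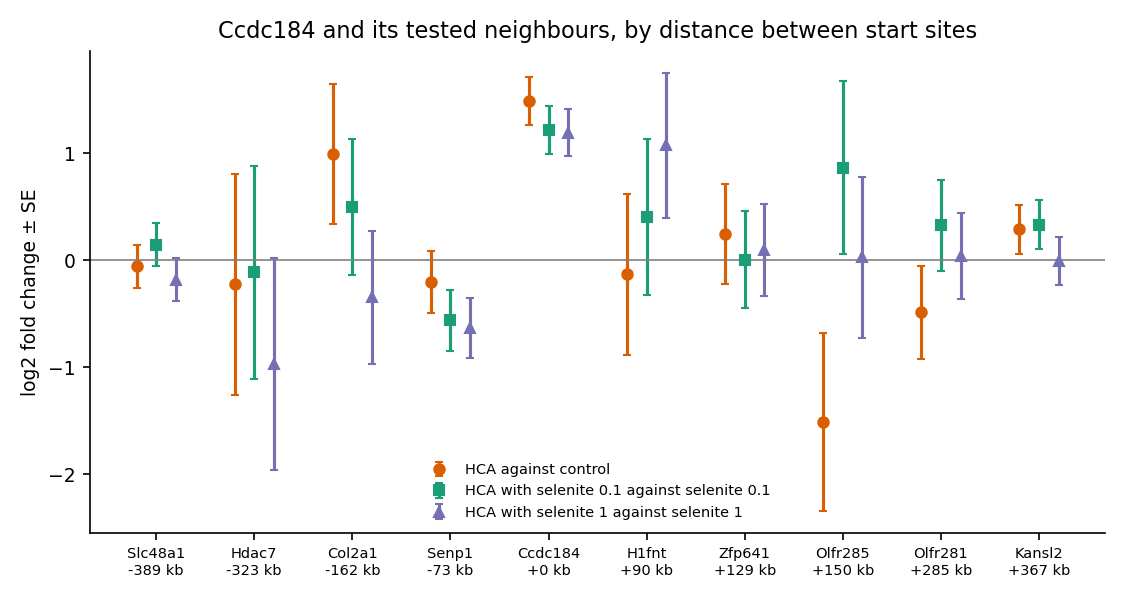
Log2 fold change with SE (vertical axis) of Ccdc184 and its 9 tested neighbours, ordered by the distance of their start from that of Ccdc184 in kb (horizontal axis); colours and shapes mark the 3 HCA pairs. Ccdc184 is at 1.49, 1.22 and 1.19, and none of the neighbours passed edgeR's test in any pair.

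The RefSeq promoter window of Ccdc184 on GRCm38.p6, from 250 bases before to 50 after the RefSeq start, is chr15:98167556-98167855. GENCODE places the start 648 bases further upstream, at 98167158, so the window lies inside the GENCODE transcript and which start is used was not measured. The window was searched on both strands for 4 motifs linked to the Atf4 and activity lists. TGATGNAA, the element bound by Atf4 with C/EBP factors, TGACGTCA, the full cAMP response element, and TGANTCA, the AP-1 element, were not in the window. They occur in 4.06%, 1.88% and 7.93% of 27025 promoter windows of the same length. TGACG, the shorter core of that response element and contained in TGACGTCA, occurred 2 times, both on the minus strand, and 21.0% of windows hold at least one. Both sites are shown in 30 bases of the plus strand, with the core, read as CGTCA on that strand, in capitals.

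Site at -109 from the RefSeq start, chr15:98167685-98167714: ccctgccccgccCGTCAgcccatacaacag

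Site at -25 from the RefSeq start, chr15:98167769-98167798: catggagacacaCGTCAtttacgtgccgtg

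These are matches of letters and no binding was measured.

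The cultures are bulk samples, in which more cells of a type that expresses Ccdc184 and more of its RNA per cell cannot be told apart, and the data do not place Ccdc184 in neurons or any other cell. Neuron markers dominated. The 10 of 16 with a tested row summed to 629 to 1327 CPM in libraries without HCA and 807 to 1405 with it, with Tubb3 alone at a median of 864 CPM. Their medians were 857, 875 and 928 CPM in control, selenite 0.1 and selenite 1 and 1073, 1046 and 1017 CPM in the matching HCA groups. Tubb3 and Gad1 had r = 0.598 and 0.601 with Ccdc184, the highest of the list. The r of the 9 neuron markers with enough counts ran from -0.229 to 0.601, with a median of 0.026. No neuron marker was called by edgeR or DESeq2, with 1, 4 and 1 at an unadjusted p under 0.05. The 4 of 8 astrocyte markers summed to medians of 33.2, 35.2 and 42.6 CPM in control, selenite 0.1 and selenite 1 and of 21.8, 23.8 and 22.1 CPM in the matching HCA groups. The 4 of 8 progenitor markers had medians of 95.3, 89.9 and 95.4 CPM and of 54.1, 53.8 and 61.2 CPM. Neither list had a member called by edgeR, with 1, 3 and 2 astrocyte and 1, 1 and 1 progenitor markers at an unadjusted p under 0.05 in the 3 pairs, and DESeq2 called 1 astrocyte marker in the selenite 0.1 pair. Of all rows, edgeR called 0.227%, 0.16% and 0.152% and DESeq2 0.684%, 0.602% and 0.469%. An unadjusted p under 0.05 in edgeR was found in 7.87%, 5.06% and 3.33%. So 0 of 4 called by edgeR is near the background. The counts at an unadjusted p under 0.05 and the DESeq2 call lay above these shares, in lists of only 4. In the HCA groups, where Ccdc184 was higher, the medians of the neuron sums were higher and those of the astrocyte and progenitor sums lower. The neuron sums are mostly Tubb3, and members did not all follow their sum. Tubb3, Gad1, Nefl and Nefm, the 4 neuron markers at an unadjusted p under 0.05 in the selenite 0.1 pair, were at 0.50, 0.54, -0.80 and -0.96. Dcx and Syt1 were below 0 there too, and the median of the list was 0.05. Aldoc was above 0 in that pair, and Pax6 in all 3 pairs. The part of these sums in the level of Ccdc184 was not tested. The 3 microglial markers Cx3cr1, Aif1 and Itgam had medians of 1.58, 0.639 and 0 CPM over the 36 libraries. Together they stayed under 4 CPM. Pecam1, an endothelial marker, had a median of 0.271 CPM. The 4 oligodendrocyte lineage markers summed to 5.23 to 16.7 CPM. Fibroblast markers, mostly Col1a2, ranged from 0.809 to 121 CPM and took low and high values in every group.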

How the data were processed

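The deposited table holds estimated counts per row for 36 libraries, although its name speaks of TPM: the columns sum to different totals. Per the submitters' processing notes STAR, Salmon and GRCm38 were used, with no versions. Settings, the filter and the annotation release are not given in the sources used here. Per the labels' protocols, RNA was isolated with the miRNeasy kit, depleted with Ribo-Zero Gold and sequenced on an Illumina HiSeq instrument.

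Rows were read as the transcripts 1 place ahead of those of the labelled gene in identifier order (GENCODE vM21, where 27094 of 27288 identifiers were found). A gene was named where all coding transcripts of the row came from 1 gene, through its row of highest mean count. This gave 7514 genes, 7131 of them tested. Names therefore rest on that inference. The Ccdc184 row and the lists were chosen with earlier results of these data known.

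The deposited estimated counts were rounded and fitted with edgeR 4.0.16 (R 4.3.3; TMM, filterByExpr with a minimum count of 10, quasi-likelihood test, 1 mean per group over all 36 libraries), with Benjamini-Hochberg adjustment over 25588 rows and a threshold of 0.05. SEs were taken from the F statistic. Likeness used log2 CPM with a prior count of 0.5. Genes were named by rule: the 5 with the highest r over libraries, the 5 with the highest r within groups, the 4 members of each list most like Ccdc184, every tested neighbour, and the 3 highest pancreatic rows. Atf5, Eif4ebp1 and the marker genes in the last paragraph were added after their values were seen. A member of the activity list that the rule names is not reported here. Alternatives were DESeq2 1.42.0, limma voom 3.58.1, RLE factors, no filter, only the groups compared, the culture batch as a block, each batch left out and 3 libraries left out. A depth covariate, the log2 of the counts outside ribosomal RNA rows, was chosen after seeing the data. With it the log2 fold changes of Ccdc184 in the 3 HCA pairs were 1.48, 1.22 and 1.19. The fit was tested on simulated data. Selenite differences on the other scales and r by batch were added after seeing the data. No 2 libraries had identical columns.

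Culture batches are stated in the labels, so replicate numbers pair the libraries. Deviations from group means correlated with a median r of 0.07 over 90 pairs of the same batch and of -0.01 over 450 pairs of different batches. The main edgeR p-values measure the spread between libraries of a group, with 6 batches and no batch term. Those of the permutation within batches measure the spread of differences between the 6 batches. Counting error is that of the row's own count in each library.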

Additional observations from a re-analysis of the deposited data

How the results depend on the processing

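Over 14 alternatives each, the log2 fold change of Ccdc184 stayed between 1.30 and 1.62 for HCA against control, 1.15 and 1.32 in the selenite 0.1 pair and 1.04 and 1.25 in the selenite 1 pair, and the lowest and highest came from leaving out 1 batch. No selenite or interaction estimate passed the threshold under any of them (lowest adjusted p 0.970). Selenite 0.1 against control turned to -0.0108 without control replicates 5 and 6 and selenite 0.1 replicate 5, and selenite 1 against control to -0.0116 without batch 5. Leaving out 1 batch gave 0.02 to 0.26 and -0.01 to 0.19 for these, -0.20 to -0.12 and -0.27 to -0.08 for HCA with selenite 0.1 and 1 against HCA, and -0.46 to -0.15 and -0.42 to -0.18 for the interactions. The cause was not tested.

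With the culture batch as a replicate block the 9 estimates were 1.41, 1.19, 1.15, 0.08, 0.06, -0.14, -0.20, -0.22 and -0.26. The block changed no call on Ccdc184 and left the selenite and interaction counts at 0. In the 3 HCA pairs it moved the count of called rows from 58, 41 and 39 to 74, 54 and 61. DESeq2 gave 175, 154 and 120, voom 35, 67 and 98, the groups compared alone 22, 23 and 22. Without the 3 libraries named above the counts were 63, 62 and 57. Without batches 1, 2, 3, 4 and 6 in turn they were 27, 38, 68, 31 and 36 for HCA against control, 23, 25, 28, 26 and 30 in the selenite 0.1 pair and 22, 29, 25, 21 and 26 in the selenite 1 pair. Without batch 3, 5 and 11 rows were called for selenite 0.1 and selenite 1 against control.

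Group means moved with the scaling. In CPM of the counts outside ribosomal RNA rows they were 8.41, 14.0, 16.2, 39.3, 37.0 and 40.2 in control, selenite 0.1, selenite 1, HCA, HCA with selenite 0.1 and HCA with selenite 1. In CPM of all counts they were 2.52, 7.74, 10.9, 22.8, 17.9 and 28.0. By Spearman's rho, 2 of the 5 genes most like Ccdc184, Nfil3 and Aars, were also among its 5, joined by Fdps, Gmeb2 and Siah2. Depth limits the lowest libraries: at 9 counts the counting error is 33.3%, at 2702 it is 1.92%.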
